A study of Mus musculus with 2 samples.

Results

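The cells described here are blood cells of the mouse yolk sac at E8.75, in mid-gestation, that carried transcripts of Myb, Runx1, Fermt3, Plek and Rab27b and held little globin. They were chosen by a gate on read-outs of the same cells: at least 500 genes and at most 10% mitochondrial transcripts, 5 or more unique molecular identifiers (UMIs, counted transcript molecules) summed over those 5 genes, and 1 or more of Lmo2. The gate further asked for at most 3 UMIs of the endothelial genes Cdh5 and Plvap, for the 7 Hba and Hbb globins under 3% of gene UMIs, and for the endodermal transcripts Ttr, Apob and Apom under 0.3%. It found 96 cells, called members below, among 1740 cells that passed the filters and 1817 in all. The comparison cells were 648 globin-high cells, with globins at 3% or more and the same limit on Ttr, Apob and Apom.

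Yolk sacs were dissociated, tagged with CellPlex oligonucleotides and loaded as a pool, and the study set out to compare ciliated yolk sac cells with the visceral endoderm lineage. Members and comparison cells alike came from Ttr-Cre/+; R26lsl-rtTA-EGFP/+ embryos, in which Ttr regulatory sequence drives Cre and Cre switches on an rtTA-EGFP allele. There was no treated group and no other genotype. The 3 tagged samples (labelled Ctrl1, Ctrl2 and Ctrl3, numbered 1 to 3 here) are the replicates, and nothing in the labels ties each to 1 embryo, so p-values measure the spread between tagged samples only.

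In the yolk sac, blood forms in overlapping waves: a primitive wave gives nucleated red cells together with early megakaryocytes and macrophages, and a later wave gives progenitors with erythroid and myeloid potential. RUNX1 and MYB are transcription factors of blood progenitors, and LMO2 is an adaptor of the GATA1 and TAL1 complex. Kindlin-3 (Fermt3) activates integrins, pleckstrin (Plek) is a protein kinase C substrate of platelets and leukocytes, and RAB27B is a small GTPase of secretory granules. Megakaryocytes, the cells that shed platelets, are known for platelet factor 4 (Pf4) and for the integrin pair of Itga2b and Itgb3.

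Members made up 7.67% of filtered cells in tagged sample 1 (34 of 443), 3.58% in tagged sample 2 (22 of 614) and 5.86% in tagged sample 3 (40 of 683), a mean of 5.70% ± 2.05 (SD, n = 3). The exact binomial 95% intervals of these shares, which cover counting error only, were 5.37 to 10.6%, 2.26 to 5.37% and 4.22 to 7.89%. With globins held under 1% in place of 3%, the mean share was 1.76%. Depth was alike in both cell sets, with a median of 48216 UMIs per member (range 22998 to 123134) and 48034 per globin-high cell. The member sums held 1645433, 1188685 and 1979790 UMIs, against 33198874 over all globin-high cells. No barcode occurred in more than 1 tagged sample, and Scrublet called 3 members as doublets.

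Several members stood close to a limit of the gate. There were 15 members with globins from 2.5 to 3%, against 24 cells that met all else with globins from 3 to 3.5%. The gene sum was 5 to 7 UMIs in 16 members, and 9 cells that met all else had a sum of 2 to 4. Of the 648 globin-high cells, 296 also reached a gene sum of 5. Another 33 cells met all else but held more than 3 Cdh5 and Plvap UMIs, and 37 failed on Ttr, Apob and Apom alone. Members had a median globin share of 1.40% (0.112 to 2.95%), between the 7.79% of globin-high cells and the 0.202% of 82 cells gated as endothelial, a cell type that should lack globin.

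The genes used by the gate differ by construction and are given as a description. Plek stood at 10.9, 64.8 and 44.4 CPM (UMIs scaled to a common library total) in the member sums of tagged samples 1, 2 and 3, and at 0.851, 1.34 and 0.289 CPM in globin-high sums. Tagged sample 1 was thus the lowest in Plek among the member sums. Rab27b was also lowest in tagged sample 1, at 21.9, 55.5 and 58.6 CPM against at most 2.77 in globin-high sums. Myb varied less, at 41.9, 53.8 and 45.5 CPM in members and 3.83, 4.39 and 5.48 in globin-high cells. Runx1 (159, 138 and 122 CPM against 63.8, 42.3 and 44.0) and Fermt3 (91.2, 143 and 124 against 51.7, 39.3 and 46.2) were also present in globin-high cells at lower levels. At a depth of 20000 UMIs per cell, 84 of 96 members and 341 of 634 globin-high cells had a Runx1 UMI, while 50 of 96 members and 52 of 634 globin-high cells had a Myb UMI. The embryonic globin Hba-x was still read at 7419, 7604 and 8423 CPM in members, against 38072 CPM or more in globin-high sums.

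The markers bore out the label in part only. Of the progenitor markers, Kit, the stem cell factor receptor, gave 87 UMIs in members (18.1 CPM over all), Cd34 gave 25, and Ptprc, the pan-leukocyte antigen CD45, gave 0 UMIs, which allows at most 0.623 CPM. Of the megakaryocyte markers, Itga2b was read in 78 of 96 members and Pf4 in 26, but Ppbp was at 0, and Gp1bb and Gp9, parts of the platelet receptor for von Willebrand factor, gave 2 and 3 UMIs. Of the myeloid markers, Csf1r, the macrophage growth factor receptor, was at 0, and Mpo and Lyz2 gave 3 and 5 UMIs. The mast cell marker Cpa3 gave 1 UMI and the lymphoid marker Il7r none. Gata1, an erythroid and megakaryocytic transcription factor, was in contrast read in 93 of 96 members. The cells are therefore called by their gate and not by a cell type.

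All other genes were compared over the 3 member and 3 globin-high sums in edgeR (quasi-likelihood), and genes with a Benjamini-Hochberg adjusted p under 0.05 were called. Of 8698 genes tested, 512 were higher in members (5.89%) and 600 were lower (6.9%), 1112 in either direction (12.8%), and 2281 had an unadjusted p under 0.05. Both sets were chosen by expression, so genes that vary with the gate genes are among these calls, and list counts are read against these shares. A gene entered the fit with enough counts in at least 3 of the 6 sums. Fcer1g, Pf4, P2rx1 and Etv2, at 1.70 CPM or less in globin-high sums, were tested only through their counts in members. The same held for Gata2 and Rasa3, at 2.51 CPM or less there. Fli1 (0.851, 4.83 and 1.44 CPM there) and Was (3.19, 1.97 and 3.35) also needed member counts to be tested. Shares of higher calls rest in part on such genes, also in the transcription factor, integrin activation and blood progenitor lists. Leaving out tagged sample 3 left 39 higher and 84 lower calls, leaving out tagged sample 2 left 145 and 189, and leaving out tagged sample 1 gave 800 and 877. Log2 differences below are scaled by the trimmed mean of M-values (TMM). Scaling by library size alone moved the median of all genes up by 0.23 on the log2 scale and the share of calls that were higher from 46.0% to 90.2%, so CPM ratios lie above the TMM-scaled differences by about that much.

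**Figure D1:**
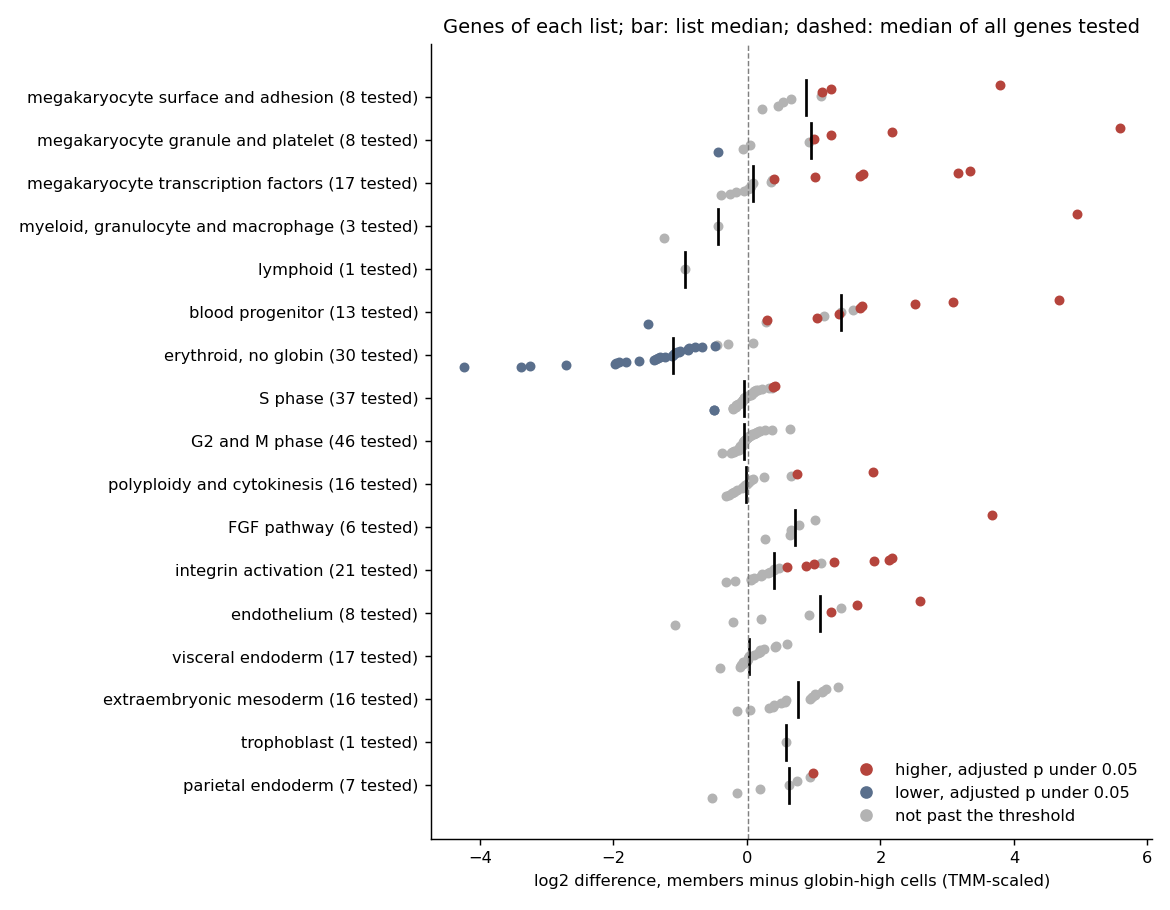
Each point is a tested gene of a named list, placed by its TMM-scaled log2 difference between members and globin-high cells (x axis), with lists on the y axis, list medians as bars and the median of all genes tested as a dashed line. The erythroid list lies to the left with 27 of 30 genes called lower, the blood progenitor list to the right with 8 of 13 called higher, and both cell cycle lists sit around 0.

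Among the megakaryocyte surface genes, the integrin Itga2b, the ATP receptor P2rx1 and the adhesion molecule Pecam1 were higher in members, and none was lower. That is 3 of the 8 genes with enough counts to be tested, out of 26 on the list, with a median log2 difference of 0.88 beside 0.02 for all genes tested. Itga2b (chromosome 11, 102453297 to 102470122, GRCm38, GENCODE M21) was read at 32.2, 47.1 and 45.5 CPM in members and at 17.9, 16.6 and 14.8 in globin-high cells. The 2 groups did not overlap, and the log2 difference was 1.12 (SE 0.15, edgeR adjusted p = 0.00113). P2rx1 rose by more from a lower level, from 1.49 CPM or less to between 4.86 and 16.2 (log2 difference 3.79, SE 0.56, adjusted p = 0.00172). Itgb3, the partner of Itga2b, was at 4.86, 18.5 and 14.6 CPM in members and at 4.04, 5.82 and 4.44 in globin-high cells, and did not pass the threshold (log2 difference 1.11, SE 0.37, adjusted p = 0.076). With the tagged sample as a replicate block it did pass, at an adjusted p of 0.0420. Without tagged sample 3 none of the 8 surface genes passed, and without tagged sample 1 9 of 15 did.

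Other platelet genes were too sparse for the fit, and some of them were read mainly in members. Gp5, a subunit of the von Willebrand factor receptor, gave 18 UMIs in members and 2 in globin-high cells, a ratio of 62.1 between CPM values (exact 95% interval 14.9 to 552, counting error only). Treml1, a protein of platelet granules, gave 27 against 4 (ratio 46.6, interval 16.2 to 183). Both were lowest in tagged sample 1, where Treml1 was at 1.22 CPM against 10.1 and 6.57 in tagged samples 2 and 3. Gp1ba gave 3 and 2 UMIs (ratio 10.3, interval 1.19 to 124). Clec1b (3 against 11 UMIs), Gp9 (3 against 39), Vwf (13 against 57) and Tubb1 (9 against 24) gave ratios of 1.88, 0.530, 1.57 and 2.59. Of these, only the interval of Tubb1, 1.06 to 5.76, lay above 1.

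Among the granule and platelet genes, Pf4, Rasgrp2, Rap1b and Tpm4 were higher in members and Vamp8 was lower, of 8 tested and 27 listed (median 0.96). Pf4 (chromosome 5, 90772435 to 90773383) encodes a chemokine stored in platelet granules and stood at 6.08, 57.2 and 13.1 CPM in members, against 0.213, 0.626 and 0.289 in globin-high cells. Every member sum lay above every globin-high sum, and tagged sample 2 stood far above the other members. The log2 difference was 5.58 (SE 0.82, edgeR adjusted p = 0.00172). The signal was concentrated, since the 10 highest members held 79.8% of the 104 Pf4 UMIs and 1 member alone held 38. Rasgrp2, the exchange factor that loads the GTPase RAP1 in platelets, was more even, at 123, 188 and 151 CPM against 38.9, 24.5 and 26.8 (log2 difference 2.17, SE 0.17, adjusted p = 6.02e-05). Rap1b, that GTPase, was at 300.2, 583 and 587 CPM against 217 or less (log2 difference 1.0, SE 0.19, adjusted p = 0.00688). Without tagged sample 2 or 3, or without the Plek-rich members, 2 of these list genes passed higher, and without tagged sample 1 9 of 16 did. Vamp8 was not called with library size scaling. The genes Tpm4 and Vamp8, like others of the lists given below without a rule, were named after their values were seen.

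Among 17 tested transcription factors of megakaryocytes, of 20 listed, 6 were higher in members and none was lower. The median was 0.09, close to that of all genes, and 13 of the 17 lay above 0, beside 4562 of all 8698 genes tested. Mef2c (chromosome 13, 83504034 to 83667080), a factor of the MADS family, was at 31.6, 81.6 and 96.0 CPM in members and 5.32, 7.34 and 4.91 in globin-high cells (log2 difference 3.34, SE 0.34, edgeR adjusted p = 0.000312). Fli1, an ETS factor of megakaryocytes and endothelium, was at 9.72, 33.7 and 37.9 CPM against 4.83 or less (log2 difference 3.17, SE 0.56, adjusted p = 0.00427). Both were lowest in tagged sample 1. Etv6, another ETS factor, and Gata2, a progenitor factor, rose by 1.69 (SE 0.31, adjusted p = 0.00578) and 1.74 (SE 0.42, adjusted p = 0.0213). Gata2 gave only 15, 12 and 7 UMIs in the member sums and did not pass when any tagged sample was left out. Etv6 did not pass without tagged sample 2 or 3, or without the Plek-rich members. The other 2 calls were Ikzf2 and Cbfa2t3, at 1.02 and 0.40. Without the 18 members that held 3 or more Plek UMIs, 2 of the 17 passed higher, and without tagged sample 3, 1 did.

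The factors that erythroid cells and megakaryocytes share were at like levels in members and globin-high cells. Gata1 was at 111, 102 and 112 CPM in members and 106, 80.9 and 89.5 in globin-high cells, with a log2 difference of 0.02 (SE 0.10, edgeR adjusted p = 0.936). The GATA1 cofactor Zfpm1 differed by -0.04 (SE 0.08, adjusted p = 0.809), Tal1 by 0.04 (SE 0.10, adjusted p = 0.859), Gfi1b by 0.07 (SE 0.11, adjusted p = 0.784) and Nfe2 by 0.09 (SE 0.11, adjusted p = 0.676). All 5 changed sign in some alternative (Zfpm1 to 0.19 when scaled by library size), so no direction is given for them. In the cells gated as endothelial Gata1 was at 10.6 CPM or less.

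**Figure D2:**
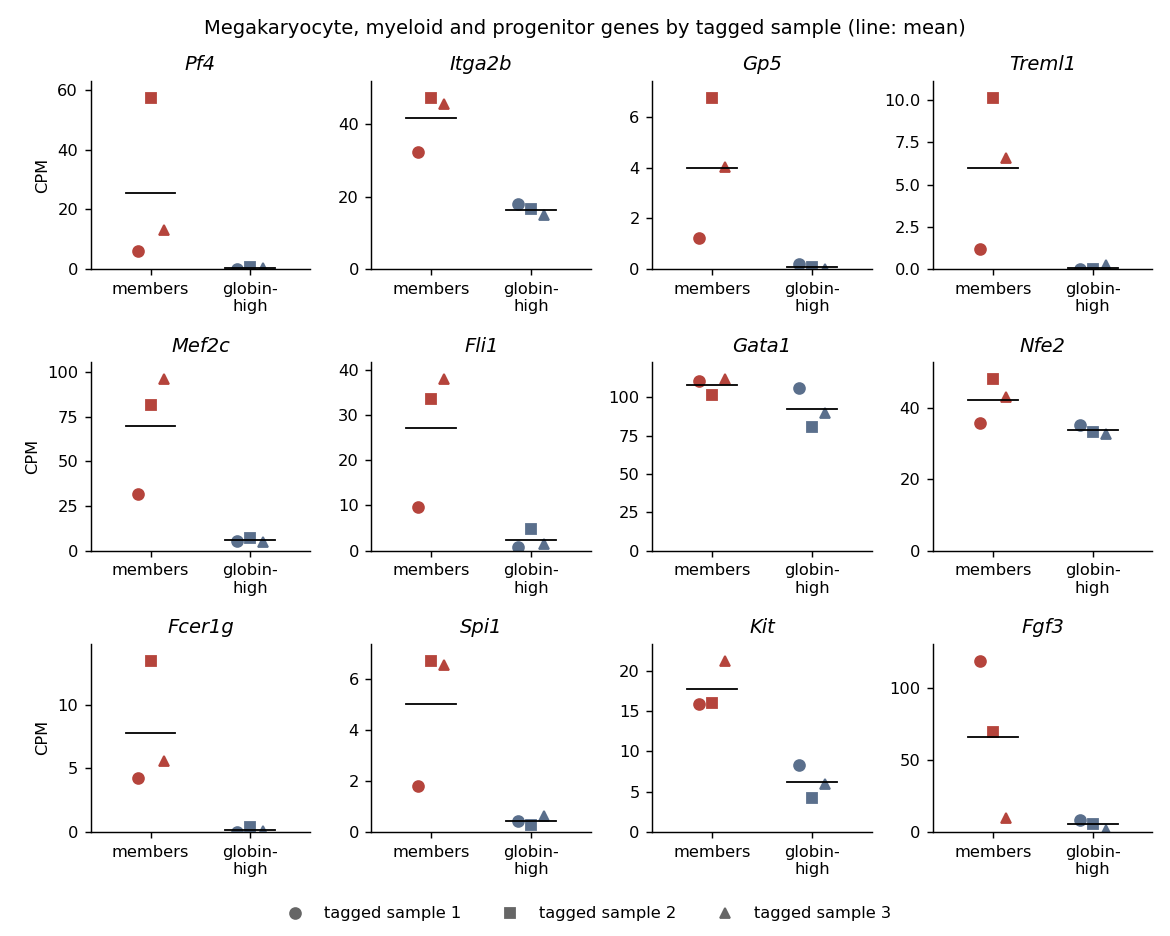
CPM of 12 genes in the 3 member sums (red) and the 3 globin-high sums (blue), with 1 symbol for each tagged sample, a line at the mean and a y axis from 0 for each gene. Pf4, Mef2c, Fli1 and Fcer1g are higher in all 3 member sums, whereas Gata1 overlaps between the groups and Fgf3 runs from 119 to 9.60 CPM among members.

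Myeloid transcripts were few. Of 35 listed genes 16 had no UMI in any member. The summed list stood at 30.4, 58.0 and 45.0 CPM in members against 17.2, 55.5 and 33.5 in globin-high cells, so the groups overlapped. Csf2rb, described below, alone made up 8.72, 42.2 and 24.9 CPM of those globin-high sums. In the endothelial gate the summed list was higher, at 148, 224 and 235 CPM. Of 3 tested genes 1 was higher, Fcer1g, the common gamma chain of Fc receptors that platelets also use, at 4.25, 13.5 and 5.56 CPM against 0, 0.358 and 0.115 (log2 difference 4.94, SE 0.70, edgeR adjusted p = 0.00143). Fcer1g entered the fit only through its counts in members, so the count of 1 in 3 is no measure of the list. The receptor subunit Csf2rb was at 14.0, 12.6 and 13.1 CPM in members and from 8.72 to 42.2 in globin-high cells, and the factor Cebpb near 4 CPM in both. Neither passed the threshold (adjusted p = 0.169 and 0.422). Without tagged sample 1, 3 of 6 myeloid genes passed higher and 1 lower, and without tagged sample 3 none of 3 passed. With member globins under 1%, 3 of 5 passed higher, and in DESeq2 3 of 20 did. With comparison globins of 10% or more, the 1 gene tested passed lower. Spi1, the transcription factor PU.1, gave 24 UMIs in members and 16 in globin-high cells (ratio 10.3, exact interval 5.27 to 20.8, counting error only), but all 24 came from 8 members. The signalling adaptor Tyrobp gave 6 against 6 UMIs (ratio 6.90, interval 1.84 to 25.8). No mast cell or basophil gene reached the fit, with a summed list of 5.05 CPM or less in members, and the 1 lymphoid gene tested, Tcf7, did not pass (log2 difference -0.93, adjusted p = 0.0710).

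Blood progenitor genes were the list with the largest share of higher calls, 8 of 13 tested and 34 listed, with 1 lower and a median of 1.42. Was, the actin regulator of blood cells mutated in Wiskott-Aldrich syndrome, was at 18.2, 35.3 and 32.8 CPM in members and 3.35 or less in globin-high cells (log2 difference 3.09, SE 0.29, edgeR adjusted p = 0.000183). The adhesion receptor Adgrg1 was at 51.1, 64.8 and 55.1 CPM against 25.3, 20.05 and 24.6 (log2 difference 1.05, SE 0.13, adjusted p = 0.000681). It was evenly spread over the tagged samples, and in the endothelial gate it was at 3.5 CPM or less. Kit was at 15.8, 16.0 and 21.2 CPM against 8.30, 4.21 and 5.95 (log2 difference 1.38, SE 0.26, adjusted p = 0.00603). The other higher genes were Laptm5, Arhgdib, Mycn, Rac2 and Lin28b. Mllt3, a factor of blood stem cells that red cells also use, was lower, at 53.5, 43.7 and 77.8 CPM against 120 or more (log2 difference -1.48, SE 0.18, adjusted p = 0.000643). Cd34 was at 0, 11.8 and 5.56 CPM in members against 0.425, 4.03 and 0.346 in globin-high cells and did not pass (log2 difference 1.42, SE 1.06, adjusted p = 0.445). Without tagged sample 3 this list had 2 higher calls. The list is not particular to members: it summed to 706, 884 and 1078 CPM in the endothelial gate, against 312, 437 and 427 in members. Kit was at 32.5, 20.3 and 44.3 CPM in that gate.

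Erythroid genes other than globins were lower in members: 27 of 30 tested, none higher, median -1.11, while the other 3, Nfe2, Slc25a38 and Tmcc2, were at 0.09, -0.28 and -0.45. The largest of these differences was in Slc4a1, the red cell anion exchanger band 3, at 4.86, 8.41 and 6.06 CPM in members against 53.0, 139 and 103 in globin-high cells (log2 difference -4.24, SE 0.50, edgeR adjusted p = 0.000618). Hemgn, a nuclear protein of erythroid cells, was at 8.51, 9.25 and 8.59 CPM against 52.8, 87.9 and 87.3 (log2 difference -3.38, SE 0.30, adjusted p = 0.000129). Ermap, an erythroid membrane protein, fell by 3.25 (SE 0.27, adjusted p = 8.85e-05) and the mitochondrial iron importer Slc25a37 by 1.91 (SE 0.14, adjusted p = 5.84e-05). The changes were smaller for the regulators Klf1 (-0.87, SE 0.15, adjusted p = 0.00342) and Epor (-0.48, SE 0.12, adjusted p = 0.0232), the latter not passing when scaled by library size, in thinned cells, with equal cell numbers, without the Plek-rich members, or without tagged sample 2 or 3. The list had 26 lower calls of 30 with library size scaling, and 14 without tagged sample 3. The gate caps globins, and in globin-high cells with globins at 10% or more as comparison the total of lower calls over all genes rose to 897.

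**Figure D3:**
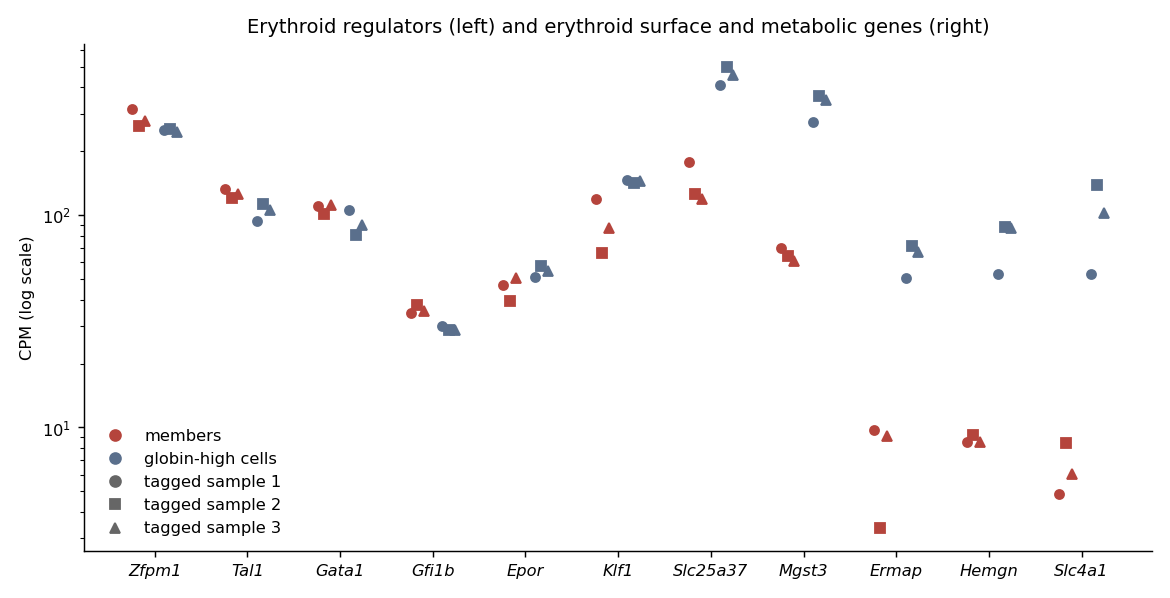
CPM on a log axis of 6 erythroid regulators (left) and 5 genes of red cell surface or metabolism (right) in the 3 member sums (red) and the 3 globin-high sums (blue), with 1 symbol for each tagged sample. Zfpm1, Tal1, Gata1 and Gfi1b lie at like levels in both groups, while Slc4a1, Hemgn and Ermap are at 9.72 CPM or less in members and at 50.4 CPM or more in globin-high cells.

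Genes of integrin activation, the process in which talin and kindlin switch integrins to a binding state, were higher for 7 of 21 tested and lower for none (median 0.40). Besides Rasgrp2 and Rap1b, which this list shares with the platelet list, these were the RAP1 inhibitor Rasa3 (log2 difference 2.12, SE 0.33, edgeR adjusted p = 0.00214), talin 1 (Tln1), zyxin (Zyx) and the integrin chains Itgb1 and Itgb2, at 0.88, 1.31, 0.60 and 1.90. The count fell to 1 without tagged sample 3, to 2 without tagged sample 2 and to 4 without the members rich in Plek. The summed list was higher in the endothelial gate, at 2816, 3000 and 3158 CPM, than in members, at 1136, 1825 and 1641.

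Among the 10 largest differences in each direction at 50 CPM or more were genes outside the lists above. Gucy1a1, a subunit of the soluble guanylate cyclase that nitric oxide activates, was at 48.6, 90.0 and 53.5 CPM in members and at 4.89, 3.85 and 5.60 in globin-high cells (log2 difference 3.44, SE 0.24, edgeR adjusted p = 5.18e-05). In the endothelial gate it was at 1.93 CPM or less, so among the 3 cell sets it was read mainly in members. Ddah2, which degrades an inhibitor of nitric oxide synthase, was at 77.2, 105 and 83.3 CPM against 18.3 or less (log2 difference 2.27, SE 0.16, adjusted p = 5.84e-05), but the endothelial gate had 190.2 CPM or more. Tgfb1, a growth factor that platelets store, rose by 2.24 (SE 0.19, adjusted p = 0.000129). Arpc1b of the actin branching complex, Cyba of the NADPH oxidase, the chromatin protein Hmga2 and the small GTPase Rnd2 rose by 1.91, 1.83, 1.93 and 1.79. The lower genes of this size, other than erythroid ones, included the glutathione transferase-like enzyme Mgst3 (log2 difference -2.58, SE 0.14, adjusted p = 6.13e-06), the GTPase Rragd of the lysosomal mTORC1 pathway (-2.36), the oxidase subunit Ncf4 (-2.17), the heme-binding protein Hebp1 (-2.20) and Rfesd (-2.02).

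Of the FGF pathway only Fgf3 passed, of 6 tested, and without tagged sample 2 none did. Fgf3, a secreted fibroblast growth factor, is a marker given for these cells and so a description: it was at 119, 69.0 and 9.60 CPM in members and at 8.30, 5.55 and 1.67 in globin-high cells, and its order over the tagged samples ran opposite to that of Rab27b. It was read in 43 of 96 members, 61 of 648 globin-high cells and 3 of 82 endothelial-gate cells. The receptor Fgfr1 was at 4.86, 7.57 and 5.56 CPM in members and the ligand Fgf10 at 4.86, 16.0 and 4.55, with log2 differences of 0.78 and 1.02 that did not pass (adjusted p = 0.167 and 0.165).

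Cell cycle genes gave no common shift in the TMM-scaled fit. Of 46 genes of G2 and M phase none passed the edgeR threshold (median -0.05), and of 37 S phase genes 2 were higher and 2 lower (median -0.04). Scaled by library size alone, 10 genes of G2 and M phase were higher and 0 lower, and 12 S phase genes were higher and 1 lower. Of all 8698 genes, 1967 were then higher and 214 lower. Summed CPM of either list was higher in each member sum than in any globin-high sum. The replication clamp Pcna was lower, at 168, 166 and 175 CPM against 207, 212 and 193 (log2 difference -0.49, SE 0.07, adjusted p = 0.00134), as was the flap nuclease Fen1 (-0.50, SE 0.10, adjusted p = 0.00764), which did not pass with library size scaling. Hells, a chromatin remodeler of replicating cells, was higher (0.42, SE 0.08, adjusted p = 0.00514). Among 16 tested genes of cytokinesis and polyploidy, a state that mature megakaryocytes reach by skipping cell division, Arhgef2 (1.89, SE 0.25, adjusted p = 0.00110) and Cdkn2d (0.75, SE 0.16, adjusted p = 0.0120) were higher. Without tagged sample 1, 2 S phase genes were higher and 5 lower, and 4 of 17 polyploidy genes were higher and 2 lower.

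Markers of other yolk sac cells were read beside these results. The summed visceral endoderm list was at 520.2, 1132 and 697 CPM in members and 595 to 675 in globin-high cells, against 46873 or more in the 7 cells gated as endodermal, and none of its 17 tested genes passed. The extraembryonic mesoderm list ranged from 88.1 to 662 CPM in members and from 174 to 301 in globin-high cells, and none of 16 passed, with 15 of them above 0 (median 0.77). Without tagged sample 1, where its level in members was lowest, 11 of 20 passed higher (median 1.59), and without tagged sample 2 none did (median -0.086). With comparison globins of 10% or more 4 of 5 passed higher. The endothelium list stood at 126, 215 and 172 CPM in members, 89.4 to 169.7 in globin-high cells and 4033 or more in the endothelial gate. Globin-high cells, unlike members, had no limit on Cdh5 and Plvap, and reached 35 UMIs of them in tagged sample 2. Of the 8 tested genes of the endothelium list 3 were higher in members, Pecam1, the receptor Tek and the factor Etv2, while Kdr was not called (log2 difference 0.93, SE 0.78, adjusted p = 0.506). Without tagged sample 3 none of 9 endothelium genes passed, and without tagged sample 1 2 of 19 visceral endoderm genes passed higher. Genes of the megakaryocyte lists are not confined to members: in the endothelial gate Fli1 was at 146 CPM or more, Mef2c at 89.9 or more, Itga2b at 35.7, 44.4 and 37.3 and Pf4 at 9.75, 8.69 and 14.0. The summed megakaryocyte surface list was at 774, 913 and 1020 CPM there, against 131, 220 and 202 in members. The part of these markers in the differences above was not tested.

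The members were not alike. Plek and Fgf3, both given as markers of these cells, were seldom read in the same cells: 24 members had a Plek UMI, 43 an Fgf3 UMI and 2 had both. At a cut of 3, 18 members held 3 or more Plek UMIs, 26 held 3 or more Fgf3 UMIs, none held 3 or more of both, and 52 held neither. These kinds were defined after the values had been seen, so what follows is a description with no test. Over the 96 cells, which come from only 3 tagged samples, the rank correlation of Plek with Fgf3 UMIs was -0.44, and after thinning to 20000 UMIs 19 members had Plek, 34 had Fgf3 and 0 had both. The Plek-rich members numbered 1, 9 and 8 in tagged samples 1, 2 and 3, and the Fgf3-rich members 15, 8 and 3. Among globin-high cells 1 of 648 held 3 or more Plek UMIs and 10 held 3 or more of Fgf3. Depth was alike, with medians of 48128, 50977 and 47994.5 UMIs in the Plek-rich, Fgf3-rich and other members.

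**Figure D4:**
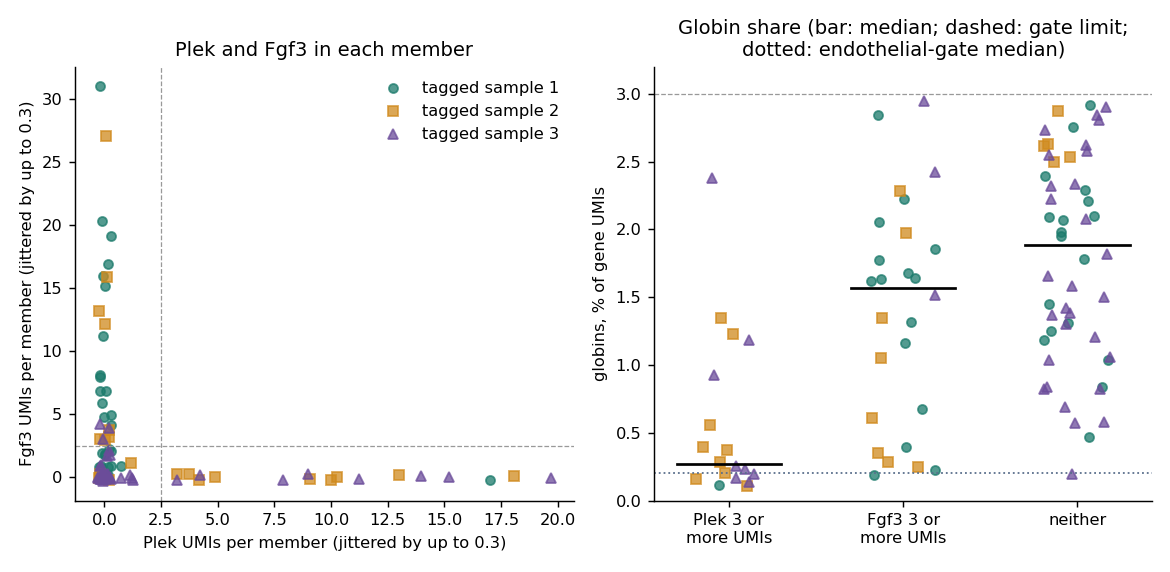
Left, UMIs of Plek (x axis) and Fgf3 (y axis) in each of the 96 members, with dashed lines between 2 and 3 UMIs; right, the globin share of gene UMIs in members with 3 or more Plek UMIs, with 3 or more Fgf3 UMIs, and with neither. No member lies in the upper right of the left panel, and the Plek-rich members have a median globin share of 0.273%, near the 0.202% of endothelial-gate cells.

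The Plek-rich members had the least globin. Their median globin share was 0.273% (0.112 to 2.38%), against 1.57% (0.193 to 2.95%) in Fgf3-rich members and 1.88% in the others, and against 0.202% in the endothelial gate. They also carried most of the megakaryocyte signal: 89 of 104 Pf4 UMIs (98.5 CPM, against 1.52 in Fgf3-rich members and 5.0 in the others), 232 of 339 Mef2c UMIs (257 CPM against 16.0 and 33.1) and 81 Fli1 UMIs (89.7 CPM against 7.62 and 15.4). In each tagged sample Mef2c was higher in Plek-rich members (466, 208 and 278 CPM) than in Fgf3-rich members (16.4, 21.1 and 0). The value of 466 comes from 1 cell. The sparse platelet genes lay in the same cells, with 15 of 18 Gp5 UMIs and 17 of 27 Treml1 UMIs. So did 32 of 34 Fcer1g UMIs, 22 of 24 Spi1 UMIs and all 25 Cd34 UMIs. The summed myeloid list was at 118 CPM in Plek-rich members, 22.9 in Fgf3-rich members and 27.3 in the others. Of the other myeloid genes tested, Csf2rb (12.2, 13.7 and 13.5 CPM in Plek-rich, Fgf3-rich and other members) and Cebpb (3.32, 3.05 and 4.62) were at like levels in the 3 kinds.

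Itga2b was more general, at 69.7 CPM in Plek-rich, 31.2 in Fgf3-rich and 36.6 in other members. Kit, at 27.7, 22.1 and 12.7 CPM, and Gata2, at 8.86, 11.4 and 4.23, were not tied to the Plek-rich cells either. Erythroid genes were lowest there: Klf1 was at 46.5 CPM against 114 and 98.5 and Slc25a37 at 28.8 against 173 and 165. Gata1 (88.6, 126 and 107 CPM), Tal1 (124, 144 and 119) and Zfpm1 (290.0, 311 and 274) differed little in CPM among the 3 kinds. Other leading genes of the Plek-rich members by CPM against Fgf3-rich ones were the actin-binding thymosin Tmsb4x (2094 against 169 CPM), the RNA-binding protein Celf2 (48.7 against 0), thrombospondin 1 (Thbs1, 46.5 against 0), Meis1 (41.0 against 0) and the VEGF receptor Kdr (49.8 against 1.52). Those of the Fgf3-rich members were the surface glycoprotein Cd24a (188 CPM against 13.3), Nrip3 (59.4 against 4.43) and Hopx (43.4 against 3.32).

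The endothelium list summed to 275 CPM in Plek-rich members, 129 in Fgf3-rich and 149 in other members, with a highest Plek-rich cell at 986, all below the endothelial gate. The extraembryonic mesoderm list was at 116, 78.5 and 576 CPM, and 1 member of the third kind reached 3817 CPM in it. All 3 doublet calls fell in the third kind, and the visceral endoderm list reached 5742 CPM in 1 of its cells. Without the Plek-rich members the all-gene comparison with globin-high cells gave 307 higher and 511 lower calls. Etv6, Fli1, Rasa3, Tek, Col4a2, Cdkn2d and Epor, of 41 named genes called before and still in the fit, no longer passed.

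**Figure D5:**
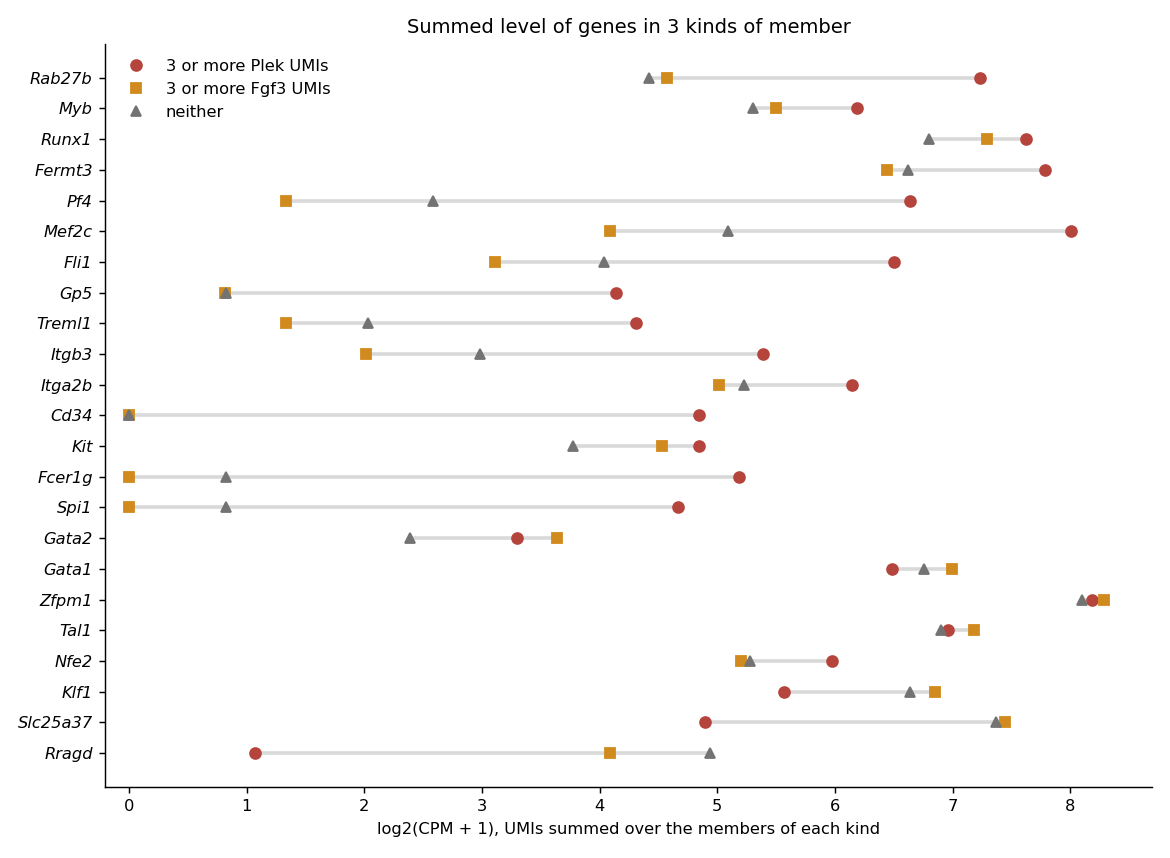
Summed level of 23 genes, as log2(CPM + 1) on the x axis, in the 18 members with 3 or more Plek UMIs (red circles), the 26 with 3 or more Fgf3 UMIs (orange squares) and the 52 with neither (grey triangles). Pf4, Mef2c, Fli1, Cd34, Fcer1g and Spi1 are highest in Plek-rich members, Slc25a37 and Rragd are lowest there, and Gata1, Zfpm1 and Tal1 lie close together.

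The promoters of Plek, Pf4 and Fgf3 are shown because these genes mark the kinds of member that did not overlap. Each line gives, 5′ to 3′ on the gene's strand, the 250 bases before the RefSeq start site in GRCm38.p6: Plek from chr11:17008719-17008968 (minus strand), Pf4 from chr5:90772185-90772434 (plus strand) and Fgf3 from chr7:144838362-144838611 (plus strand). Capitals mark matches on either strand to GATAA, the core read by GATA factors, to AGGAAG, a core read by ETS factors, or to TGTGGT, a core read by RUNX factors, and no matches overlapped.
Plek: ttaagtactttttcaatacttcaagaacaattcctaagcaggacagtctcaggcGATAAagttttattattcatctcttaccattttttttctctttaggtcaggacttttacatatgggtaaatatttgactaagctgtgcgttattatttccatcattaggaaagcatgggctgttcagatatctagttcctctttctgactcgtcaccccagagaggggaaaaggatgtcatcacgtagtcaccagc
Pf4: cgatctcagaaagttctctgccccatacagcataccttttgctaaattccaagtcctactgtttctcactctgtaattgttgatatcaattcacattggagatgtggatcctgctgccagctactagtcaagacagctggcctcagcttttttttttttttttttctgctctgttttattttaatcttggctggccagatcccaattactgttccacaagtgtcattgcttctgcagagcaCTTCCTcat
Fgf3: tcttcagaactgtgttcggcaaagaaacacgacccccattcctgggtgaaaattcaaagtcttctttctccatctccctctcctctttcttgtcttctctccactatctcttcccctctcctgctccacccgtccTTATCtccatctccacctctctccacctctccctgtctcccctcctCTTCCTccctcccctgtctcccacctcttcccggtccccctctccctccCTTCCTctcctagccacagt
Plek held 1 GATAA, 192 to 196 bases before the start site. Pf4 held 1 AGGAAG, 4 to 9 bases before it, on the opposite strand. Fgf3 held 1 GATAA and 2 AGGAAG, and TGTGGT was found in none of these windows. Over 32851 promoter windows of this length, 22.6% held GATAA, 29.5% AGGAAG and 14.0% TGTGGT, so matches like these are frequent and describe the letters only.

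Counted by the summed markers, few members held myeloid transcripts. After thinning to 20000 UMIs, 20 of 96 members had 3 or more UMIs summed over a set of megakaryocyte genes that included Pf4, Itga2b, Gp1bb, Gp9, Treml1 and Ppbp, and 5 had 3 or more over Spi1, Csf1r, Mpo, Lyz2, Fcer1g and Tyrobp. In globin-high cells the numbers were 6 and 0 of 634, and in the endothelial gate 3 and 1 of 58. Of the members, 4 had both, 16 the megakaryocyte sum alone, 1 the myeloid sum alone and 75 neither, so 4 of the 5 with the myeloid sum also had the megakaryocyte one. The cut is a point on a range: 17 members had a megakaryocyte sum of 2 or 3, and unthinned cells gave 9 with both, 34 with the megakaryocyte sum alone and 0 with the myeloid sum alone. Itga2b gave 56.5% and Pf4 29.5% of the megakaryocyte UMIs, and Fcer1g 47.2% and Spi1 33.3% of the myeloid ones. At the same depth Pf4 was read in 18 of 96 members (18.8%, exact interval 11.5 to 28.0%), 4 of 634 globin-high cells (0.631%) and 7 of 58 endothelial-gate cells (12.1%), against 27.1% of members unthinned. That interval covers counting error only, not the spread between the 3 tagged samples.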

How the data were processed

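Single-cell gene expression of 3 tagged yolk sac samples was analysed. The authors deposited raw UMI counts per gene and cell, not normalized, which per the file headers come from Cell Ranger 6.1.2, with GRCm38 (mm10) per the submitters' processing notes. For the annotation and the tag assignment, settings were not given in the sources used here. Counts were summed per tagged sample over members and over globin-high cells and compared with edgeR 4.0.16 (TMM, filterByExpr, glmQLFit and glmQLFTest, two-sided, R 4.3.3) in a fit of these 6 sums. Those of the 18 gate genes that passed the filter stayed in the fit and in the Benjamini-Hochberg adjustment. Their p-values are not given, and they were kept out of the counts. Calls were adjusted p under 0.05, and the procedure was tested on simulated data. Precision is limited by 3 tagged samples. Cells were thinned to 20000 UMIs for shares, leaving out shallower cells (14 globin-high, 24 endothelial-gate, 0 members).

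The endothelial gate asked for over 3 Cdh5 and Plvap UMIs, a gene sum under 5 and the same globin and endodermal limits, and the endodermal gate for 3% or more of Ttr, Apob and Apom. Named genes were the gate genes and Fgf3, a list of fixed roles, the 3 smallest p in each list, and the 10 largest differences in each direction at 50 CPM or more. The members and lists were chosen with earlier results of these data known. No doublet was removed. Scrublet removal, DESeq2 1.42.0, other scalings, filters, gates, thinning, equal cell numbers and leave-one-out fits were alternatives. Both sums of a tagged sample share its tag, so the numbers pair them, and their deviations correlated across genes by -0.07, -0.03 and 0.10. The 2 sums of tagged sample 2 differed in sex-linked calls, described below. Its members had 19 Xist and 0 Y-linked calls, its globin-high cells 89 and 90. All 106 named genes matched GENCODE M21 by identifier and 81 had a RefSeq promoter (GRCm38.p6). Some genes of the lists and sums are not reported here by name.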

Additional observations from a re-analysis of the deposited data

Results flagged for a closer look

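Transcripts of Xist and of 4 Y-linked genes (Uty, Kdm5d, Ddx3y and Eif2s3y) were not part of the comparisons and were read as a check of the tags. A cell counted as an Xist cell at 4 UMIs or above of that gene if it held no more than 1 from the Y-linked genes, and as a Y-linked cell at 2 UMIs or above of those if it held no more than 1 of Xist. These limits come from earlier work on these data. In tagged sample 1, 14 members were called by Xist and 16 by Y-linked genes. In tagged sample 3 the numbers were 18 and 18. In tagged sample 2, 19 of 22 members were called by Xist and 0 by Y-linked genes, although its globin-high cells held 89 and 90. Each of tagged samples 1 and 3 thus held members of both kinds. Globin-high cells called by Xist and by Y-linked genes numbered 41 and 29 in tagged sample 1 and 105 and 181 in tagged sample 3. All 3 tagged samples therefore held cells of both kinds. Fgf3 was uneven between these kinds: members of tagged sample 1 called by Y-linked genes had 132 Fgf3 UMIs and those called by Xist 36, while in tagged sample 3 the 18 Xist members had 18 and the 18 Y-linked members 0. These differences were not tested, and what they owe to the number of embryos behind a tagged sample was not tested.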

How the results depend on the processing

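Leaving out a tagged sample gave 39 to 800 genes higher and 84 to 877 lower. Library size scaling gave 1967 higher and 214 lower, comparison cells with globins of at least 10% gave 793 higher, equal cell numbers 291, thinned cells 341, and members without 3 or more Plek UMIs 307. With the tagged sample as a replicate block 428 were higher and 543 lower; of the named genes none lost its call, and Anln, Col4a1 and Itgb3 gained one (adjusted p = 0.0443, 0.0112 and 0.0420). No named gene that was called changed direction in any alternative, but 20 of 44 lost the call without tagged sample 3 and 10 without tagged sample 2. The member share fell to 1.76% with globins under 1%, where the list medians, here and below taken over genes that were also tested in the comparison as reported, became 1.42 for megakaryocyte surface genes, 2.34 for blood progenitor, -2.02 for erythroid and 1.38 for FGF genes. Without the Plek-rich members (chosen after seeing the data) the surface median was 0.49 and the factor median 0.18. The factor median was 0.19 with a gene sum of 8 or more, and 0.15 to 0.21 with a tagged sample left out. With comparison cells of a gene sum under 5 (also chosen after seeing the data) the FGF median was 2.27, over only 2 tested genes with Fgf3 among them, and the S phase median -0.075. The S phase median was -0.018 without doublet calls and -0.086 to 0.0065 with tagged samples left out. Members with both sums, the megakaryocyte sum alone and the myeloid sum alone numbered 9, 34 and 0 without thinning, and the first and second were 1 and 5 at 10000 UMIs. Log2 differences of some genes below the threshold changed sign. With globins under 1% these were Gata1 -0.030, Gfi1b -0.068, Tal1 -0.044, Slc2a2 -0.38, Trf -0.039 and Zfpm1 0.11. With comparison globins of 10% or more they were Gata1 -0.0053, Gfi1b -0.062, Nfe2 -0.22 and Tal1 -0.058. With a gene sum of 3 they were Gata1 -0.017 and Tal1 -0.012, and with no low-count filter Gata1 -0.026 and Tal1 -0.0079. With comparison cells of a gene sum under 5 they were Gfi1b -0.066 and Zfpm1 0.065, and without the Plek-rich members Gfi1b -0.0052, Itgb3 -0.030 and Nfe2 -0.086. Library size scaling gave Ccnb1 0.0070, Rhoa 0.079 and Zfpm1 0.19, and thinned cells Tal1 -0.011, Trf -0.081 and Zfpm1 0.039. Removing doublet calls gave Hand1 -0.38 and Zfpm1 0.022, and equal cell numbers Gfi1b -0.13. With a tagged sample left out the ranges were -0.013 to 0.053 for Gata1, -0.47 to 1.49 for Hand1, -0.082 to 0.81 for Slc2a2, -0.10 to 0.15 for Tal1 and -0.16 to 0.039 for Zfpm1. The causes were not tested.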
